A study of Mus musculus with 78 samples.

Results

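The early endothelial response to disturbed blood flow was examined here as the difference between the left and the right common carotid artery (LCA and RCA) of 5 vehicle-treated mice, 12 h after partial ligation of the LCA. These 5 mice gave 10 of the 78 arrays of the study, 1 array per artery, and the left and right arrays of a mouse were joined by the animal number in their labels. Every mouse of the study, in whichever group, had its LCA partially ligated, and the RCA of the same animal, which was not ligated, was the control. Vehicle was given by mouth each day, starting 2 days before surgery. Groups used for comparison were 5 vehicle-treated mice taken at 24 h, 5 at 48 h and 5 at 2 weeks after ligation, and 5 mice given atorvastatin, a cholesterol-lowering statin, at 10 mg/kg/day and taken at 12 h. RNA was flushed from the lumen with Qiazol, so each sample was endothelium-enriched rather than purified, and biotin-labelled cRNA was hybridised to Affymetrix mouse arrays. Strain, sex and age of the animals are not given in the labels, and the labels speak of 4 batches of extraction and profiling without assigning samples to them, so batch and group cannot be told apart.

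Endothelial cells sense the drag of flowing blood. Steady laminar flow keeps the transcription factors Klf2 and Klf4 high, and with them nitric oxide synthesis and an anti-inflammatory, anti-thrombotic surface. Partial ligation of the carotid branches leaves a low and oscillating flow in the common carotid, in which these genes are known to fall and from which atherosclerotic lesions can develop. Values below are deposited log2 expression values, so a difference of 1 between arteries is a 2-fold difference. A gene is said to have risen or fallen when the mean LCA minus RCA difference passed an adjusted p of 0.05 in limma with Benjamini-Hochberg adjustment, over the 11344 genes above the array median on at least 4 arrays.

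The arrays carried the labelled tissue's markers. Of 14 endothelial marker genes, 12 lay above the array median on all 10 arrays, and their mean level ran from 8.77 to 9.60 over the LCA arrays and from 8.85 to 9.60 over the RCA arrays. Some markers of other cell types also lay above the array median on all 10 arrays. This held for 7 of 11 fibroblast, 4 of 9 smooth muscle, 3 of 12 macrophage and 3 of 5 lymphatic endothelial markers. It also held for 1 of 5 adipocyte and 1 of 5 T cell markers. The T cell marker was Cd247, whereas Cd3d, Cd3e, Cd3g and Cd2 lay above the median on 0 arrays. The same was true of the lymphatic endothelial markers Prox1 and Reln, so these lists do not show that either cell type was present. The mean fibroblast level ran from 7.29 to 7.90 in the LCA and from 6.42 to 8.11 in the RCA. Among 75 tested markers of all cell types, 0 passed limma's test between the arteries, with 5 at an unadjusted p under 0.05. Single arteries nevertheless stood apart. The mean of 9 smooth muscle markers was 7.68 in the RCA of mouse 3 against 5.07 to 5.32 in the other 4 RCAs and 5.50 to 5.88 in the LCAs, and the contractile genes Myh11 and Itga8 read 9.97 and 10.95 in that artery. Adipocyte markers ran from 4.70 to 7.37 in the LCA and from 4.65 to 6.67 in the RCA, highest in the LCA of mouse 3. The mean of 12 macrophage markers was lowest in the RCA of mouse 1 at 4.24 and highest in the LCA of mouse 5 at 6.80. All 4 Schwann cell, 4 B cell, 4 dendritic cell and 4 thyroid markers stayed below the array median on all 10 arrays. The 3′ to 5′ log2 ratio of the Gapdh control probe sets, which grows as RNA is degraded, averaged 4.82 ± 0.30 on the ligated side and 4.74 ± 0.31 on the control side (SD, n = 5; difference 0.078, exact two-sided sign-flip permutation p = 0.625, where 0.0625 is the smallest p that 5 pairs can give). For actin the ratio was 0.185 ± 0.342 and -0.083 ± 0.378 (exact permutation p = 0.375). In both arteries the Gapdh ratio lay far above the actin ratio, and the reason was not tested. A like ratio on both sides does not show that the RNA was intact. In such bulk samples, fewer cells of a type and less RNA per cell cannot be told apart.

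**Figure D1:**
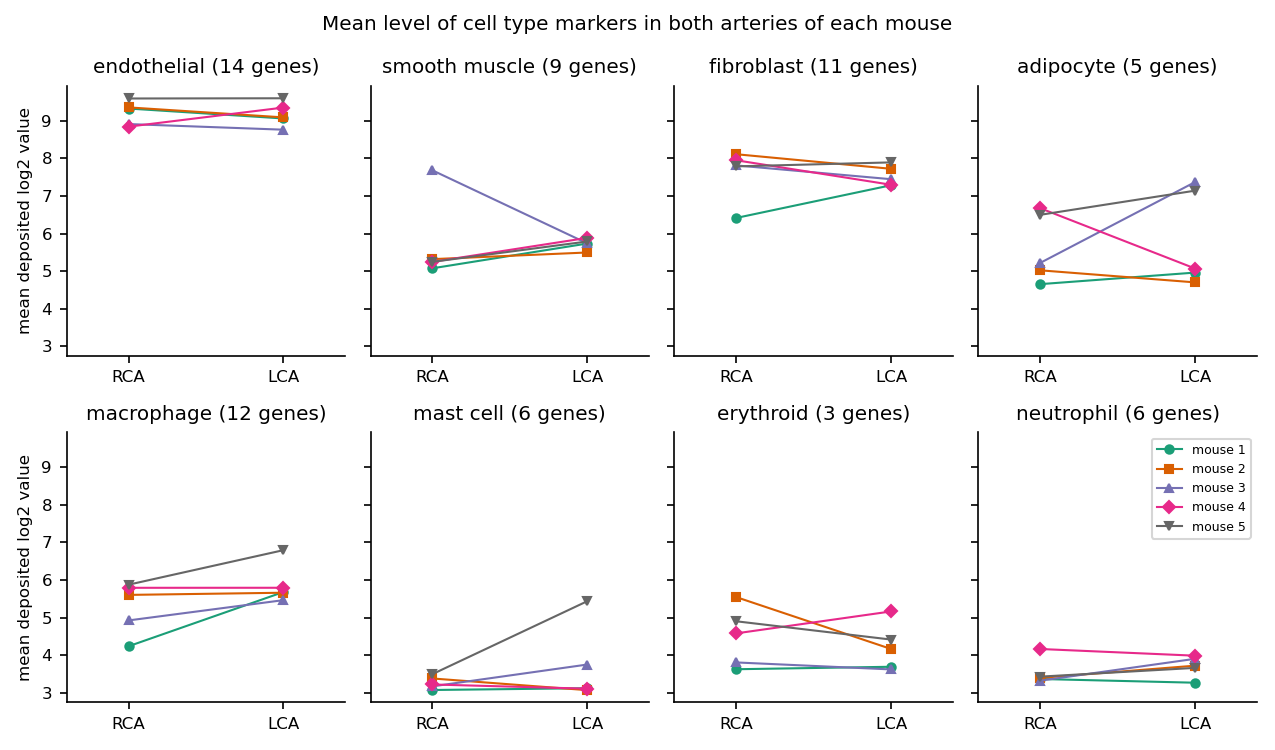
Mean deposited log2 value of the marker genes of 8 cell types (vertical axis) in the RCA and LCA of each of the 5 vehicle-treated mice at 12 h (a line per mouse). Endothelial markers lie between 8.77 and 9.60 on all 10 arrays, and the smooth muscle markers of the RCA of mouse 3 stand at 7.68, above the other 9 arrays.

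At 12 h, 271 of 11344 genes (2.39%) had a left-right difference that passed the test. The ligated LCA was higher for 149 of them (1.31%) and lower for 122 (1.08%). The median difference of the genes that rose was 0.85 and of those that fell -0.87, against 0.03 over all tested genes. Higher genes made up 55% of the calls, but 44.8% of 250 calls after the arrays were quantile-normalised once more and 44.1% of 263 after each mouse's differences were centred on their median. Of the 271, 53 rose and 42 fell by 2-fold or more. All 5 mice moved in the same direction for 138 of the genes that rose and 113 of those that fell. For 87 and 74 of them, respectively, the 5 LCA arrays did not overlap the 5 RCA arrays. Such separation was seen for 337 of all tested genes (2.97%), 196 of them higher (1.73%) and 141 lower (1.24%). Left-right differences of whole mice were only loosely alike, with Pearson's r of 0.03 to 0.24 across the tested genes in the 10 pairs of mice, where genes are not independent replicates. The fit took its estimate of the spread from all 39 mice of the study, and 72 genes were called when these 5 mice were fitted alone, 62 of them among the 271. Without mouse 3, whose RCA stood apart in smooth muscle markers, 147 genes were called, 67 higher and 80 lower, of which 133 were among the 271.

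**Figure D2:**
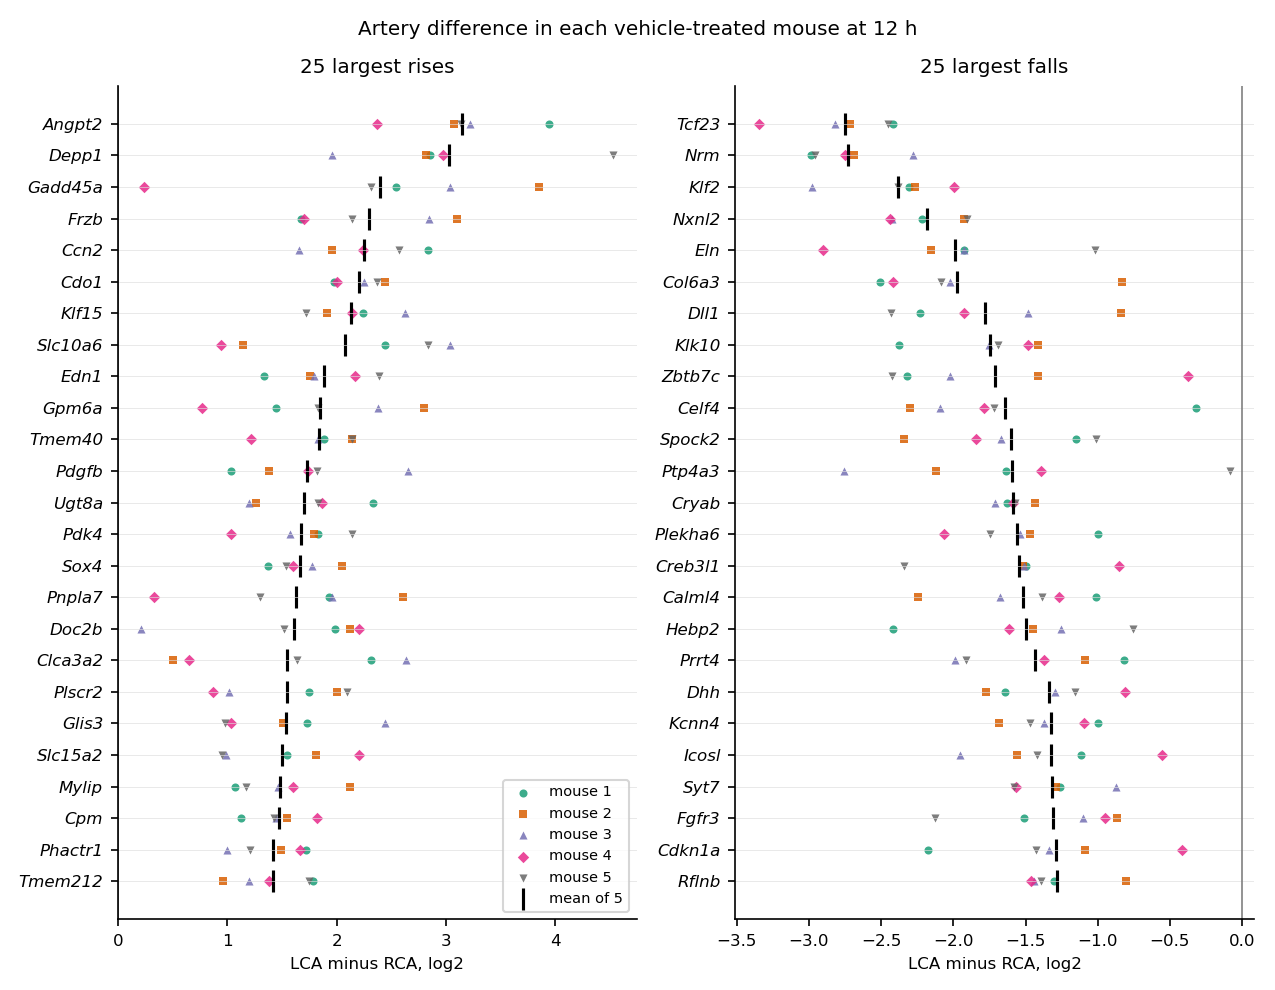
LCA minus RCA difference in log2 units (horizontal axis) of the 25 genes with the largest rise and the 25 with the largest fall among genes that passed the test and moved the same way in 5 of 5 mice (vertical axis), with a symbol for each mouse and a bar for the mean. Predicted genes are left out. Angpt2 and Tcf23 stand at the top of the groups at 3.15 and -2.75 by the probe set used (2.02 for Angpt2 over both its probe sets), and Gadd45a and Ptp4a3 spread most over the mice.

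Genes that laminar flow is known to sustain had lower mean values in the ligated artery. All 15 tested genes of this list had a negative mean difference. Of them 5 fell and 0 rose, against 1.08% and 1.31% of all tested genes, and the median was -0.625 against 0.03 over all genes. The list was put together with results of these data known, so its direction is not independent evidence. Klf2, the flow-induced transcription factor, read 10.17, 9.88, 9.83, 10.03 and 10.03 in the RCA of mice 1 to 5 and 7.86, 7.62, 6.85, 8.04 and 7.65 in the LCA. Its highest LCA value lay well below its lowest RCA value, and the difference of -2.39 (SE 0.20, adjusted p = 9.53e-10) was 5.23-fold. Klk10, a secreted serine protease family member with an anti-inflammatory action in endothelium, read 10.98, 10.67, 10.36, 10.39 and 10.52 in the RCA and 8.60, 9.26, 8.60, 8.90 and 8.83 in the LCA. These arteries did not overlap either, and Klk10 fell by 1.74 on the log2 scale (SE 0.30, adjusted p = 0.000694). Smaller falls were found for Timp3, an inhibitor of metalloproteinases and of VEGF signalling, at -0.70 (SE 0.19, adjusted p = 0.0364), and for Palmd, encoding palmdelphin, at -0.65 (SE 0.15, adjusted p = 0.00947). Slc9a3r2, the scaffold protein NHERF2, fell by 0.59 (SE 0.15, adjusted p = 0.023). Klf2 and Klk10 passed the test whichever mouse was left out. In the same refits Timp3 and Slc9a3r2 passed 0 of 5 times and Palmd did not pass without mouse 1, 3 or 5, so that 2 of the 5 falls were called without mouse 3 (adjusted p up to 0.195, 0.0799 and 0.065).

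Klf4 and Nos3, the genes most often read together with Klf2, did not pass the test in the fit over all mice, and their calls turned on the setting. Klf4 stood at 11.27, 11.27, 11.39, 11.52 and 11.33 in the RCA and 10.55, 10.46, 10.21, 10.29 and 10.52 in the LCA, a difference of -0.95 (SE 0.33, adjusted p = 0.146). Nos3, the endothelial nitric oxide synthase, stood at 8.47, 7.91, 8.05, 8.25 and 8.25 in the RCA and 7.52, 7.77, 7.14, 7.79 and 7.47 in the LCA, a difference of -0.65 (SE 0.19, adjusted p = 0.0576). For both genes every mouse was lower on the left and the arteries did not overlap. Klf4 passed when these 5 mice were fitted alone (adjusted p = 0.0403), with only the 12 h and 24 h mice (0.000199) and with the mean of its probe sets (-1.12, 0.0334). Nos3 passed after a further quantile normalisation (-0.69, adjusted p = 0.0438) and after centring (-0.68, 0.0448), but not in the 5 mice alone (0.157). Of the other listed members, Pi16 (-1.20), Sema3g (-0.62), Podxl (-0.44), Aqp1 (-0.44), Gch1 (-0.33), Tek (-0.25), Thbd (-0.09) and Cav1 (-0.09) did not pass. The list of nitric oxide synthesis and caveolae, with 14 tested genes, held 0 calls by limma (2 at an unadjusted p under 0.05) and a median of -0.10.

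**Figure D3:**
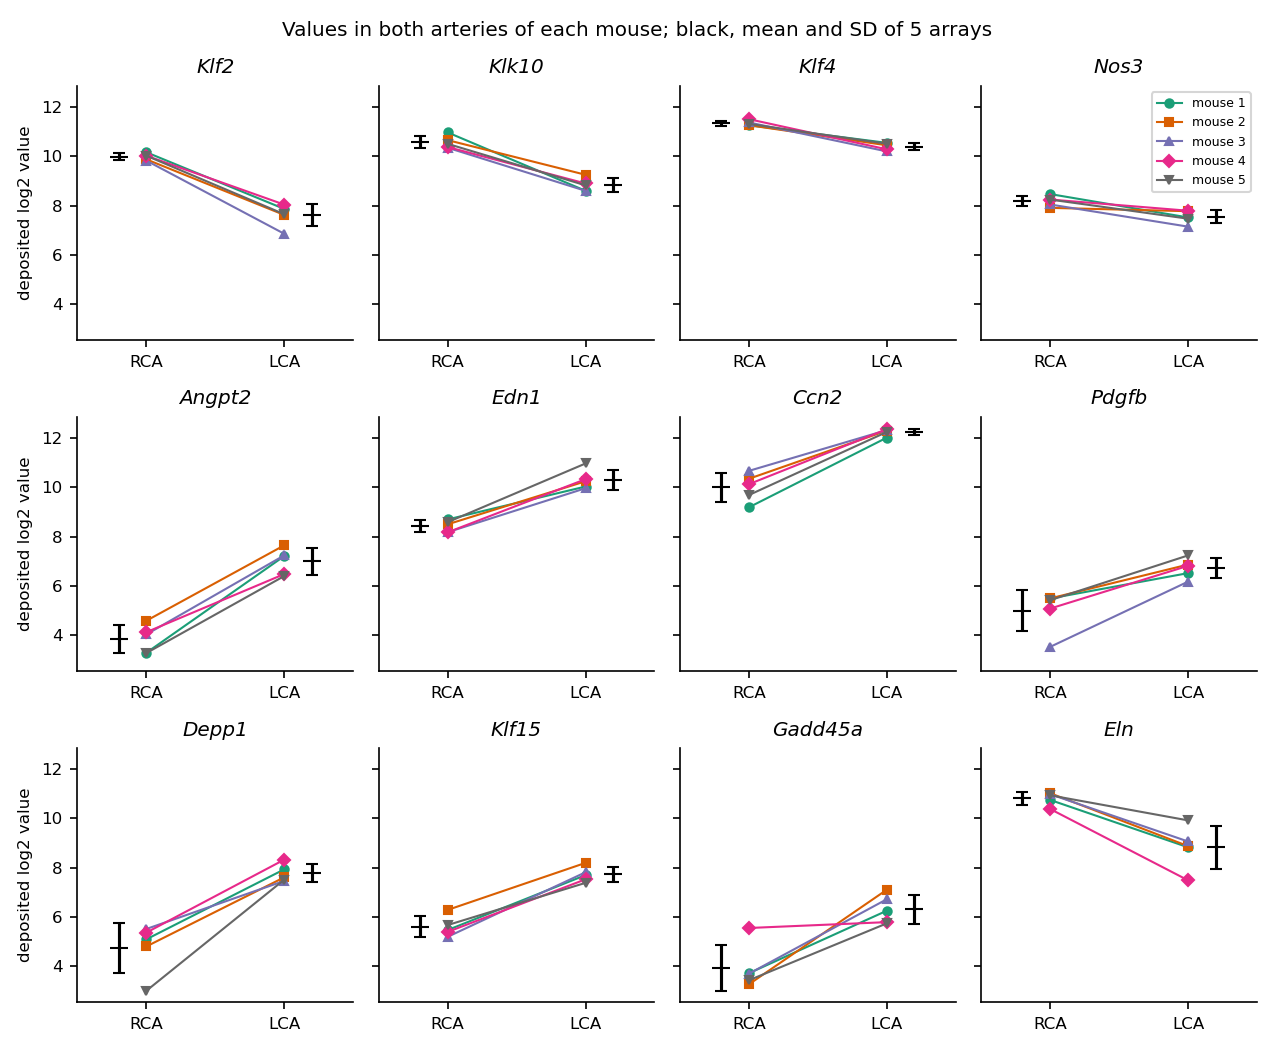
Deposited log2 values (vertical axis) of 12 genes in the RCA and LCA of each vehicle-treated mouse at 12 h, with a line per mouse and the mean and SD of 5 arrays in black. Klf2, Klk10 and Eln drop in every mouse, Angpt2, Edn1, Ccn2 and Klf15 climb in every mouse, and mouse 4 stands apart for Gadd45a.

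Upstream sequence was printed for 2 genes that fell, Klf2 and Klk10, and 2 that rose, Edn1 and Depp1, because they lead the groups described here and have an entry in the promoter table. Each line gives the 250 bases before the transcription start from RefSeq (build GRCm38.p6), 5′ to 3′ on the gene's strand, which is the plus strand for all 4. Capitals mark matches, on either strand, to the letters CTA, any 4 bases and TAG (MEF2), CCCCACCC (KLF), TGTTTAC (FOXO), CATTCC (TEAD), ACANNNTGT (glucocorticoid receptor), CACGTG (E-box) and TGANTCA (AP-1). The windows are chr8:72318812-72319061 for Klf2, chr7:43780804-43781053 for Klk10, chr13:42301226-42301475 for Edn1 and chr6:116650434-116650683 for Depp1.
Klf2: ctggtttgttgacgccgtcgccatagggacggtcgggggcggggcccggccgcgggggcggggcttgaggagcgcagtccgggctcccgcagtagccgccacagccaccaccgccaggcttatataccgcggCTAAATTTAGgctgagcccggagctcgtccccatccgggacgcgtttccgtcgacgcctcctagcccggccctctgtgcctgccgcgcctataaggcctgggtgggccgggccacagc
Klk10: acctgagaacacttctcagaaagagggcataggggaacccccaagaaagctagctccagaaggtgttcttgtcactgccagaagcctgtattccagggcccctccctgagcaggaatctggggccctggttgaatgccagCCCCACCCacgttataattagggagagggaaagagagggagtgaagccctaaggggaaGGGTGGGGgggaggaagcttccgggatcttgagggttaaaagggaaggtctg
Edn1: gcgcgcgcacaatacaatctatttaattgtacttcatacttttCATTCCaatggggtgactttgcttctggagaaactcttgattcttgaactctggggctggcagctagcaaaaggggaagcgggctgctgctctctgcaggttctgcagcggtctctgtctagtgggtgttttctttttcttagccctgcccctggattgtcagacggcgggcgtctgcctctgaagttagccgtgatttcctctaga
Depp1: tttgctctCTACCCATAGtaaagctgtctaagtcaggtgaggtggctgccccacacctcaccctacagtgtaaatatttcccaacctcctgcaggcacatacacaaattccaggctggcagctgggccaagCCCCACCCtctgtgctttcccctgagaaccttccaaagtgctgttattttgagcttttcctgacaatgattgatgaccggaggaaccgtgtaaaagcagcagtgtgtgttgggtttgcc

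The Klf2 window held the MEF2 letters at bases 118 to 109 before the start, and the Depp1 window held them at 242 to 233. The KLF letters were found at 110 to 103 and, as their reverse complement, at 52 to 45 in Klk10, and at 119 to 112 in Depp1. In Edn1 the TEAD letters lay at 207 to 202. Windows were matched by symbol for 9149 tested genes, 115 that rose and 90 that fell. The KLF letters were present in 11.5% of all windows, 15.7% of those of genes that rose and 21.1% of those of genes that fell. The corresponding shares were 2.60%, 4.35% and 3.33% for MEF2, 2.12%, 3.48% and 1.11% for FOXO, and 10.8%, 15.7% and 12.2% for TEAD. For the glucocorticoid receptor they were 3.64%, 6.96% and 2.22%, for the E-box 8.59%, 13.9% and 5.56%, and for AP-1 4.36%, 4.35% and 5.56%. These shares describe short runs of letters in a fixed window and were not tested.

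The 2 named genes that fell furthest encode proteins of the cell nucleus. Tcf23, a helix-loop-helix transcription factor, read 7.20, 7.22, 6.90, 7.58 and 6.45 in the RCA and 4.78, 4.51, 4.08, 4.23 and 4.0 in the LCA. Nrm, the inner nuclear membrane protein nurim, read 7.17, 7.57, 6.90, 6.86 and 7.85 in the RCA and 4.19, 4.88, 4.62, 4.11 and 4.89 in the LCA. For both genes the arteries lay more than 1 unit apart. The differences were -2.75 (SE 0.24, adjusted p = 1.32e-09) and -2.73 (SE 0.33, adjusted p = 1.9e-06), or 6.73-fold and 6.65-fold lower. The low LCA values lie near the array medians of 4.60 to 4.66, where differences are compressed by RMA, the array summary the values come from. Nxnl2, a nucleoredoxin-like protein, fell by 2.18 (SE 0.26, adjusted p = 1.9e-06), with LCA values of 4.16 to 4.55 and RCA values of 6.06 to 6.71.

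Several cell surface and secreted signals of arterial endothelium fell with Klf2. Dll1, a Notch ligand, read 10.37, 9.80, 9.90, 10.40 and 10.60 in the RCA and 8.14, 8.96, 8.42, 8.47 and 8.17 in the LCA. All 5 RCA values lay above all 5 LCA values, with the smallest gap between arteries of a mouse in mouse 2, and the difference was -1.78 (SE 0.27, adjusted p = 9.85e-05). Dhh, the hedgehog ligand made by endothelium, fell by 1.33 (SE 0.24, adjusted p = 0.00126). In the Dhh data the ranges overlapped (8.25 to 9.61 in the LCA and 9.23 to 10.77 in the RCA), although every mouse was lower on the left. Fgfr3, a fibroblast growth factor receptor, fell by 1.31 (SE 0.16, adjusted p = 3.26e-06) and Icosl, a T cell costimulatory ligand, by 1.32 (SE 0.23, adjusted p = 0.000833). Kcnn4, the calcium-activated potassium channel of endothelial hyperpolarisation, fell by 1.32 (SE 0.19, adjusted p = 5.31e-05), from 10.86 to 11.26 in the RCA to 9.39 to 10.17 in the LCA. It was the only member called among 10 tested mechanosensors and channels, where Piezo1 stood at -0.22 and Kcnn3 at -0.69.

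Other large falls fell into no single list. Cryab, a small heat shock protein, was lower by a nearly equal amount in each mouse, with differences of -1.63, -1.43, -1.71, -1.59 and -1.57 in mice 1 to 5 and a mean of -1.58 (SE 0.35, adjusted p = 0.00734). Differences were -1.71 for the zinc finger factor Zbtb7c, -1.64 for the RNA-binding protein Celf4 and -1.60 for the proteoglycan Spock2. They were -1.56 for Plekha6, -1.54 for the membrane-bound transcription factor Creb3l1, -1.52 for Calml4 and -1.50 for the haem-binding protein Hebp2. For Prrt4, the vesicle calcium sensor Syt7 and the filamin-binding protein Rflnb they were -1.44, -1.31 and -1.28. Each of these 10 genes was lower on the left in 5 of 5 mice without overlap of the arteries, and passed whichever mouse was left out. Celf4 and Hebp2 lay below the array medians in every LCA. Celf4 was also below them in the RCA of mice 1 and 5, at 3.92 and 4.08, and mouse 1 differed by only -0.32. The size of the Celf4 difference is thus only approximate. The phosphatase Ptp4a3 fell by 1.60 (SE 0.43, adjusted p = 0.0386), but mouse 5 differed by only -0.08, and without mouse 3 the difference was -1.31 (adjusted p = 0.216).

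A vessel-destabilising ligand was among the genes with the largest rises. Angpt2, angiopoietin-2, which opposes angiopoietin-1 at the receptor Tek, read 3.27, 4.57, 4.02, 4.11 and 3.26 in the RCA and 7.21, 7.65, 7.24, 6.47 and 6.39 in the LCA. The RCA values lay below the array medians and all LCA values well above them, a difference of 3.15 (SE 0.59, adjusted p = 0.00152). Since the RCA values are that low, the size is only approximate. A second Angpt2 probe set gave a smaller difference of 0.89, and the mean of both gave 2.02 (adjusted p = 0.00821). The other ligand, Angpt1, stood at -0.35, and the receptors Tek and Tie1 at -0.25 and -0.19, with no call. Vegfa, the main angiogenic growth factor, moved the other way. It read 7.75, 8.13, 7.81, 8.29 and 7.84 in the RCA and 7.19, 6.87, 7.58, 6.84 and 6.39 in the LCA, lower on the left in each mouse, by 0.99 on average (SE 0.27, adjusted p = 0.0387, and up to 0.158 with a mouse left out). Its receptors Kdr and Flt1 stood at -0.17 and 0.07. Of the 13 tested genes of this system 1 rose and 1 fell, against 1.31% and 1.08% of all tested genes, and the median was 0.05.

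Further secreted signals for the vessel wall rose. Edn1, the vasoconstrictor endothelin-1, read 8.70, 8.50, 8.18, 8.17 and 8.59 in the RCA and 10.04, 10.25, 9.97, 10.34 and 10.98 in the LCA. Every LCA exceeded every RCA by more than 1 unit, and the rise was 1.89 (SE 0.33, 3.7-fold, adjusted p = 0.000694). The endothelial receptor Ednrb stood at 0.41 and the processing enzyme Ece1 at -0.02, both without a call. Pdgfb, a growth factor for smooth muscle cells and pericytes, rose by 1.73 (SE 0.30, adjusted p = 0.000694), from 5.48, 5.48, 3.51, 5.07 and 5.41 in the RCA to 6.51, 6.86, 6.16, 6.81 and 7.23 in the LCA. The arteries did not overlap, and the RCA of mouse 3, which was rich in smooth muscle markers, gave the lowest value; without mouse 3 the difference was 1.49.

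Ccn2, connective tissue growth factor and a known target of YAP and TAZ, was among the brightest genes. Its LCA values of 12.03, 12.31, 12.33, 12.37 and 12.26 lay close together, above RCA values of 9.19, 10.35, 10.67, 10.13 and 9.69, a rise of 2.25 (SE 0.35, 4.77-fold, adjusted p = 0.000169). Crim1, a transmembrane regulator of BMPs, rose by 0.93 (SE 0.19, adjusted p = 0.00404). The other 12 of 14 tested YAP and TAZ targets were not called, with Ccn1 at 0.70 and Ankrd1 at -0.01, and the list median was 0.250. Bmp4 and Bmp6, ligands of the BMP pathway, rose by 0.67 (SE 0.14, adjusted p = 0.00427) and 0.60 (SE 0.15, adjusted p = 0.0286), each in 5 of 5 mice without overlap. Acvrl1, the endothelial BMP receptor ALK1, fell by 0.57 (SE 0.13, adjusted p = 0.00947). Id1, a target of BMP signalling, fell by 0.95 (SE 0.25, adjusted p = 0.0338), while Id2 and Id3 stood at 0.07 and 0.08. With each mouse left out in turn, Bmp6 passed 0, Acvrl1 3 and Id1 1 of 5 times (adjusted p up to 0.101, 0.0764 and 0.179).

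Within the Notch pathway the ligand and a target moved in opposite directions. Beside the fall of Dll1, the target Hey1 rose by 0.77 (SE 0.21, adjusted p = 0.0388, and 0.194 at most with a mouse left out), with overlapping arteries. The remaining 12 of 14 tested members were not called, among them Jag1 (-0.61), Nrarp (-0.76), Dll4 (0.10) and Notch1 (-0.29). The vascular connexins, which form gap junctions, also split. Gja4 rose by 1.02 (SE 0.19, adjusted p = 0.00148), with RCA values of 6.52 to 7.73 and LCA values of 7.81 to 8.43, and Gjc1 fell by 0.54 (SE 0.15, adjusted p = 0.0481, and up to 0.21 with a mouse left out). Gja1 and Gja5 stood at 0.71 and -0.51 without a call.

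Several genes known from FoxO activity and fasting rose. Of 16 tested members 5 rose and 0 fell, against 1.31% and 1.08% of all tested genes, and the median was 0.46. The list was drawn up with the leading genes of these data known, so the count is not independent evidence. Depp1, a FoxO target that lowers peroxisomal and antioxidant capacity, read 5.08, 4.79, 5.50, 5.35 and 2.98 in the RCA and 7.93, 7.60, 7.46, 8.32 and 7.51 in the LCA. The LCA values were tightly grouped and the RCA of mouse 5 was the lowest, and the rise was 3.03 (SE 0.50, 8.14-fold, adjusted p = 0.000432). Klf15, a glucocorticoid- and fasting-induced transcription factor, read 5.46, 6.28, 5.18, 5.38 and 5.66 in the RCA and 7.69, 8.19, 7.81, 7.52 and 7.38 in the LCA. Cdo1, the cysteine dioxygenase that starts taurine synthesis, read 7.81, 7.81, 7.26, 8.15 and 7.88 in the RCA and 9.78, 10.25, 9.51, 10.15 and 10.25 in the LCA. Their arteries were separated by more than 1 unit, with rises of 2.13 (SE 0.37, adjusted p = 0.000698) and 2.21 (SE 0.45, adjusted p = 0.00315). Pdk4, the kinase that restrains pyruvate oxidation, rose by 1.67 (SE 0.24, adjusted p = 5.9e-05) and the coregulator Cited2 by 0.77 (SE 0.19, adjusted p = 0.0245, and up to 0.113 with a mouse left out). Among members without a call were Sesn3 (0.70), Gabarapl1 (0.63), Fbxo32 (0.53), Txnip (0.07), and Foxo1 and Foxo3 themselves (-0.25 and 0.11). Without mouse 3, all 5 calls remained.

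Growth arrest genes were split, with 3 of 14 tested members rising and 1 falling, against 1.31% and 1.08% of all tested genes. Gadd45a, a stress-induced brake on the cell cycle, read 3.70, 3.24, 3.68, 5.54 and 3.41 in the RCA and 6.24, 7.10, 6.71, 5.78 and 5.73 in the LCA. In mouse 4 the RCA was already high and the difference only 0.24, against 2.32 to 3.85 in the others, for a mean rise of 2.40 (SE 0.44, adjusted p = 0.0014). Its SD over mice, 1.34, was the widest of the 50 leading genes, ahead of Ptp4a3 (0.99), Slc10a6 (0.97), Clca3a2 (0.96) and Depp1 (0.93). Cdkn1a, the cyclin-dependent kinase inhibitor p21, fell by 1.29 (SE 0.36, adjusted p = 0.0447), with differences of -2.18, -1.09, -1.34, -0.42 and -1.43 in mice 1 to 5. Of the 5 refits that left out a mouse, Cdkn1a passed only in that without mouse 4 (adjusted p up to 0.208). Btg1, an antiproliferative gene, rose by 0.57 (SE 0.14, adjusted p = 0.0233) and Mdm2, the ubiquitin ligase of p53, by 0.67 (SE 0.17, adjusted p = 0.0294). For Mdm2, mice 4 and 5 differed by 0.17 and -0.04, and a second probe set gave a mean difference of -0.10. With a mouse left out, adjusted p reached 0.092 for Btg1 and 0.183 for Mdm2. The remaining 10 of 14 members were not called, the median was 0.40, and 1 or 2 members rose, in place of 3, when any mouse was left out. Bcl2l11, the pro-apoptotic BIM, was the only 1 of 12 tested BCL2 family genes called, at 0.71 (SE 0.16, adjusted p = 0.00827), with mouse 3 highest at 1.15; without it the difference was 0.60 (adjusted p = 0.0845). Cell cycle genes lay around 0, with 0 of 21 called by limma (0 at an unadjusted p under 0.05), a range of -0.592 to 0.365 and a median of 0.01.

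Of the NF-kB genes 2 of 14 tested rose, against 1.31% of all tested genes, while Vcam1 and Icam1 did not pass the test. Tnfaip3, the ubiquitin-editing inhibitor A20 of NF-kB, read 8.45, 7.26, 8.0, 8.47 and 7.93 in the RCA and 9.76, 9.60, 9.27, 9.38 and 8.52 in the LCA. All LCA values lay above all RCA values, with the smallest difference in mouse 5, and the rise was 1.28 (SE 0.22, adjusted p = 0.000694). Birc3, an inhibitor of apoptosis that NF-kB induces, rose by 0.77 (SE 0.21, adjusted p = 0.0403, and 0.208 at most with a mouse left out). No gene of the NF-kB list fell, and its median was 0.245. Cxcl1, a neutrophil-attracting chemokine, rose by 1.11 (SE 0.25, adjusted p = 0.00744), with differences of 0.46, 1.72, 1.69, 1.04 and 0.65. Mice 2 and 3 gave the largest of these values, and in the refits without either of them Cxcl1 did not pass (adjusted p up to 0.0726). The other 18 of 19 tested chemokines were not called, although the list median was 0.58. Their spread over mice was wide, as for Cxcl5, with differences of 0.41, 2.70, 3.47, -0.12 and 0.23 in mice 1 to 5.

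Vcam1, the adhesion molecule for monocytes, stood at 8.95, 8.33, 8.77, 9.30 and 8.87 in the RCA and 9.35, 9.26, 9.12, 9.66 and 9.32 in the LCA, a difference of 0.50 (SE 0.19, adjusted p = 0.216). Icam1 stood at 10.81, 10.99, 10.35, 10.52 and 10.90 in the RCA and 11.07, 11.18, 10.91, 11.18 and 11.24 in the LCA, a difference of 0.40 (SE 0.13, adjusted p = 0.112). Both were higher on the left in every mouse, the arteries overlapped, and neither passed the test. The selectins Sele and Selp stood at 0.42 and 0.31 without a call. Icam2, which is constitutive on resting endothelium, fell by 0.84 (SE 0.23, adjusted p = 0.0438, and up to 0.237 with a mouse left out), the only call among 9 adhesion genes. Macrophage markers, given above, were not called, but all 12 had a positive mean difference (median 0.70, and 0.17 without mouse 1), with the mean per mouse from 0.001 in mouse 4 to 1.45 in mouse 1, and their part in these differences was not tested.

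Matrix genes had few but large falls. Eln, elastin, read 10.76, 11.03, 10.99, 10.39 and 10.94 in the RCA and 8.83, 8.87, 9.06, 7.48 and 9.92 in the LCA. The arteries did not overlap, mouse 4 had the largest difference and mouse 5 the smallest, and the fall was 1.99 (SE 0.21, 3.97-fold, adjusted p = 1.97e-07). Eln is also made by smooth muscle cells, whose markers were high in the RCA of mouse 3. The Eln difference in mouse 3 was -1.93, and the mean without mouse 3 was -2.0. What part smooth muscle cells had in the Eln difference of any mouse was not tested. Col6a3, a chain of type VI collagen, fell by 1.97 (SE 0.37, adjusted p = 0.00152), with differences of -2.51, -0.83, -2.03, -2.42 and -2.08 and mouse 2 apart from the rest. These were the only calls among 15 elastic fibre genes (median 0.01) and 18 collagens (median -0.17). Fibroblast markers differed by -0.70 to 0.94 on average per mouse, with a list median of -0.01. Of 10 tested fibroblast markers 5 stood above 0 and 5 below, with Pi16 lowest at -1.20 and Col1a2 at -0.37, and 0 were called. Of the 18 collagens 15 had a negative mean difference and 3 a positive one. Col1a1 (0.12) and Col3a1 (0.27) were among these 3. Adam15, a membrane metalloproteinase of endothelium, fell by 0.95 (SE 0.14, adjusted p = 5.9e-05), but its 4 probe sets ranged from -1.11 to -0.03 and their mean did not pass (-0.58, adjusted p = 0.0968).

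**Figure D4:**
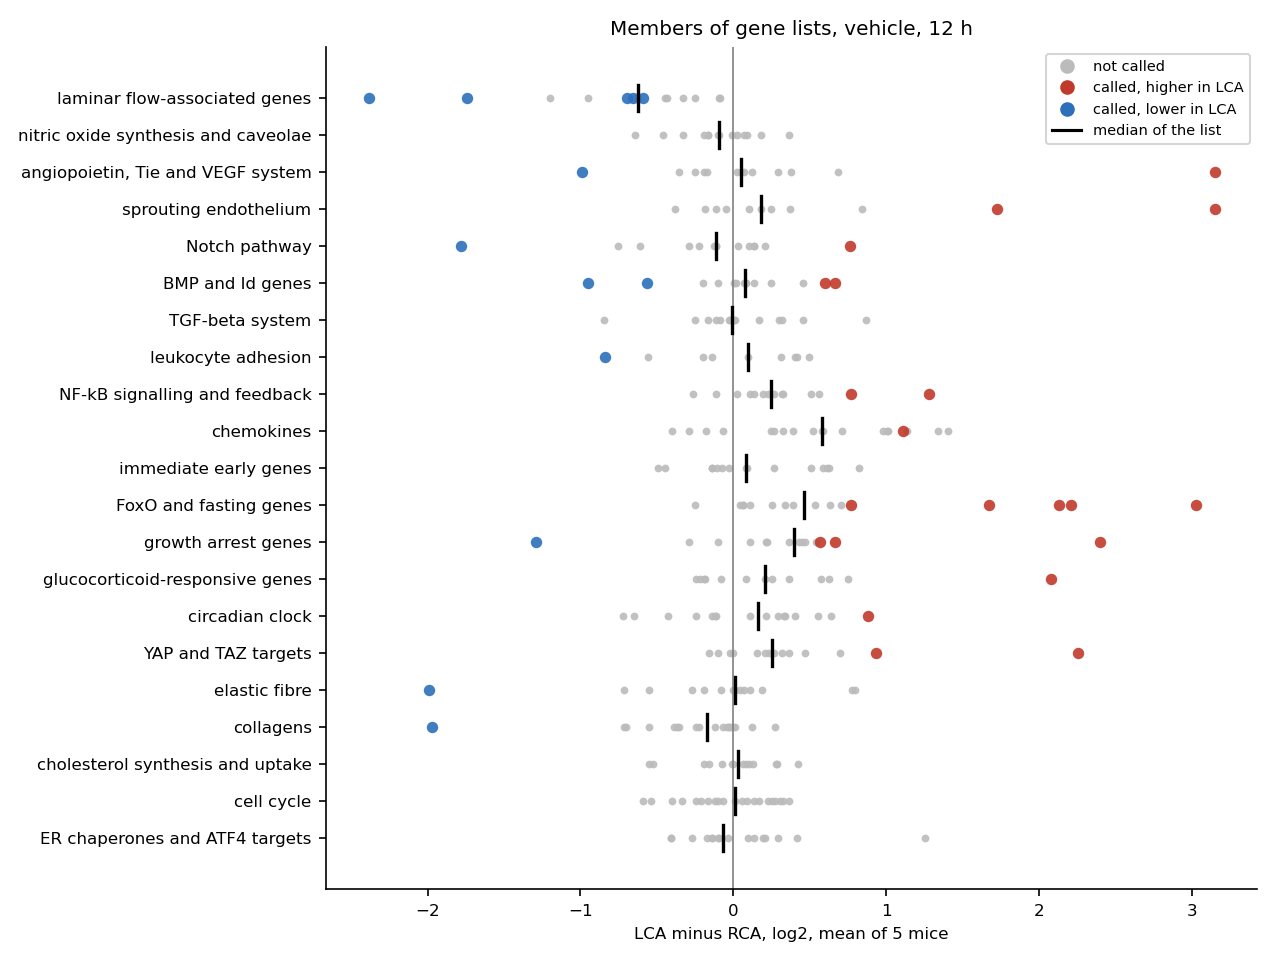
Mean LCA minus RCA difference over 5 mice, in log2 units (horizontal axis), of each tested member of 21 gene lists (vertical axis), coloured where the adjusted p was under 0.05, with a black bar at the list's median. The laminar flow list lies wholly below 0 with a median of -0.625, FoxO and fasting genes reach 3.03 with a median of 0.46, and the cell cycle list stays between -0.592 and 0.365.

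Remaining leading rises came from varied classes. Frzb, a secreted antagonist of Wnt ligands, read 5.73, 4.63, 4.65, 5.23 and 5.37 in the RCA and 7.40, 7.73, 7.49, 6.93 and 7.51 in the LCA. The gap between the arteries exceeded 1 unit, with a rise of 2.29 (SE 0.38, adjusted p = 0.000366), and Frzb was the only call among 16 tested Wnt pathway genes. Slc10a6, a steroid sulfate transporter, rose by 2.08 (SE 0.46, adjusted p = 0.008). Of the other 12 tested members of the glucocorticoid-responsive list 0 rose, with Fkbp5 at 0.75 and Tsc22d3 at -0.19. Klf15, also induced by glucocorticoids, rose but was counted in the FoxO and fasting list. Igf1r, the IGF-1 receptor, rose by 0.87 (SE 0.13, adjusted p = 5.31e-05). Itgb5, an integrin subunit, rose by 1.05 (adjusted p = 0.0154), Pfkfb3, a driver of glycolysis, by 0.74 (0.0286), Nfil3, a clock-linked repressor, by 0.88 (0.0393) and Ntn4, a netrin, by 0.72 (0.048). Each of these 4 calls was lost in at least 3 of the 5 refits without a mouse, with adjusted p up to 0.089, 0.13, 0.176 and 0.177. Zbtb46, a transcription factor of quiescent endothelium, fell by 0.74 (SE 0.15, adjusted p = 0.00369), the only call among 22 endothelial transcription factors.

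Rises of 1.63 for the lysophospholipase Pnpla7, 1.61 for the exocytosis sensor Doc2b, 1.55 for the scramblase Plscr2, 1.50 for the peptide transporter Slc15a2 and 1.41 for Tmem212 passed whichever mouse was left out. Their arteries did not overlap. The 50 leading genes were picked on these same arrays for size and for 1 direction in 5 of 5 mice. The counts that follow stem in part from that choice and are not independent support. Of the 50, 44 had arteries that did not overlap, as did 2.97% of all tested genes. In the refits, 38 passed with each mouse left out in turn, and 41 passed in a fit of these 5 mice alone. The other 12 had a higher adjusted p, 0.216 at most, with some mouse left out. They were Slc10a6, Gpm6a, Tmem40, Ugt8a, Sox4, Clca3a2, Glis3, Mylip, Cpm, Phactr1, Ptp4a3 and Cdkn1a, and without mouse 3 Slc10a6 stood at 1.84 (adjusted p = 0.0701), Gpm6a at 1.71 (0.0556) and Sox4 at 1.64 (0.121). Among them the transcription factors Sox4 and Glis3 rose by 1.67 and 1.54, Mylip, the ligase that degrades the LDL receptor, by 1.49, the peptidase Cpm by 1.47 and the actin regulator Phactr1 by 1.42.

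The choice of probe set moved the size of 18 named genes by more than 1.5 times, in the same direction. With the mean of all probe sets of a gene, Pdgfb stood at 1.14, Tmem40 at 1.07, Slc15a2 at 0.51 and Tnfaip3 at 0.79. Among the falls, Nxnl2 stood at -1.37, Zbtb7c at -0.96, Spock2 at -0.88, Ptp4a3 at -0.83, Icosl at -0.79, Dhh at -0.73 and Prrt4 at -0.57, and Slc9a3r2 was larger at -1.0. All of these and Angpt2 still passed. Calls were lost for Sox4 (0.76, adjusted p = 0.164), Phactr1 (0.52, 0.143), Bcl2l11 (0.41, 0.0548), Mdm2 (0.28, 0.278) and Adam15, and also for Birc3, Btg1 and Pfkfb3. In the fit of these 5 mice alone, 34 of the 77 named genes with a call did not pass.

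In all, 45 of 539 tested members of the 44 pathway lists were called, and 27 lists held a call. The lists were drawn up with results of these data in view, so nothing is read from that share beside the 2.39% of all genes. No member passed limma's test in the other 17 lists. They covered immediate early genes (15 tested, 2 at an unadjusted p under 0.05), the TGF-beta system (14 and 2), mesenchymal transition (8 and 1), cholesterol synthesis and uptake (14 and 3), ER chaperones and ATF4 targets (16 and 1) and NRF2 and antioxidant genes (13 and 4). The interferon response (9 and 0), antigen presentation (9 and 0), complement (11 and 1), coagulation (10 and 1) and proteoglycans (12 and 1) held none either. The medians of the 17 lists lay between -0.21 and 0.34.

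Most of the 271 genes differed in the same direction at 12 h in the atorvastatin-treated mice, which had their own ligated and control arteries. In them 191 genes were called (1.68%), of which 86 rose (0.758%) and 105 fell (0.926%). Of the 149 genes that rose under vehicle, 137 (91.9%) had a positive difference under atorvastatin, where 52.8% of all tested genes did, and 54 (36.2%) were called in the same direction. Of the 122 that fell, 118 (96.7%) were negative and 62 (50.8%) were called in the same direction, against 47.1% and 0.926% of all genes. Put the other way, 62.8% of the 86 and 59% of the 105 genes called under atorvastatin were shared. Both sets of calls came from the same fit, with 1 estimate of each gene's spread, so shared calls are not fully independent. This also applies to the calls at 24 h and 48 h below. Across all tested genes the differences of the treatments correlated with a Pearson's r of 0.57, with genes not independent of each other. All 50 leading genes kept their direction in the mean, 42 of them in 5 of 5 atorvastatin mice, and 38 were called.

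Klf2 was lower by 3.04 under atorvastatin and 2.39 under vehicle, Klk10 by 1.80 and 1.74, and Angpt2 was higher by 2.17 and 3.15. Tested directly with limma, the difference between arteries changed with treatment for 1 gene (0.00882%), while 416 genes had an unadjusted p under 0.05. That gene was Ube4a, a ubiquitin chain assembly factor. Under vehicle it read 6.06, 4.92, 5.96, 4.77 and 6.13 in the RCA and 6.33, 6.12, 6.44, 6.87 and 7.66 in the LCA, overlapping slightly between arteries but higher on the left in each mouse, a rise of 1.12 (SE 0.21, adjusted p = 0.00154). Under atorvastatin the difference was -0.61, and the treatments differed by -1.73 (SE 0.30, adjusted p = 0.0159). The count went to 0 without vehicle mouse 2, 4 or 5. The Gapdh 3′ to 5′ ratio differed by 0.67 ± 0.91 (SD, n = 5) between the arteries of the atorvastatin mice, and its part was not tested.

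At 24 h, in other vehicle-treated mice, 1620 genes differed between the arteries (14.3%). Of the genes that rose at 12 h, 134 of 149 (89.9%) were positive at 24 h, against 53.1% of all tested genes, and 95 (63.8%) were called higher, against 7.19%. Of those that fell, 119 of 122 (97.5%) were negative, against 46.7%, and 92 (75.4%) were called lower, against 7.09%. No gene had a difference that changed from 12 h to 24 h in the direct limma test (0 of 11344, with 1189 at an unadjusted p under 0.05). Leaving out vehicle mouse 2 of the 12 h group gave 6 such genes. The Gapdh ratio differed by 0.94 ± 0.58 between the arteries at 24 h, against 0.08 ± 0.31 at 12 h, and its part in the larger count of 24 h calls was not tested. Klf2 stood at -3.01, Klk10 at -3.20, Nos3 at -1.32 and Klf4 at -1.41 at 24 h.

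By 48 h a part of the early rises had gone. Between 12 h and 48 h the artery difference changed for 2199 genes (19.4%), 1132 upwards and 1067 downwards. At 48 h itself 4106 genes differed between the arteries (36.2%). Of the 149 genes that rose at 12 h, 88 (59.1%) were still positive at 48 h, against 51% of all tested genes, 49 (32.9%) were called higher, against 20.8%, and 18 (12.1%) were called lower, against 15.4%. Among the 149 were 66 with a tested change, 65 of them downwards, and 59 of these 66 were negative at 48 h. Of the 122 that fell, 111 (91.0%) were still negative, against 48.9%, and 85 (69.7%) were called lower, against 15.4%. Of these 122, 28 changed, 13 towards 0 or past it and 15 further down. The median of the genes that rose went from 0.85 at 12 h to 0.17 at 48 h, and of those that fell from -0.87 to -0.75. The 149 and the 122 genes were picked by their 12 h values, which also enter the tested change. A part of any shift towards 0 can follow from that choice alone, and its size was not tested. With only the mice of these times in the fit the count of changed genes was 624. The mice at 48 h had more neutrophil signal in the LCA, with a median difference of 4.12 over 4 markers against 0.31 at 12 h, and the part of infiltrating cells was not tested. Between the arteries at 48 h the Gapdh 3′ to 5′ ratio differed by -0.38 ± 0.45 (SD, n = 5). At 12 h this difference was 0.08 ± 0.31, and its part in the changes was not tested.

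Several metabolic and FoxO-linked rises were among those lost. Klf15 went from 2.13 at 12 h and 2.24 at 24 h to -0.23 at 48 h (change tested, adjusted p = 0.00313). Cdo1 went from 2.21 to -0.23 (0.00785), Pdk4 from 1.67 to 0.60 (0.0272), Phactr1 from 1.42 to -0.99 (0.00323) and Mylip from 1.49 to -0.70 (0.00507). The median of the FoxO and fasting list was 0.46 at 12 h, 0.95 at 24 h and -0.23 at 48 h. Depp1, at 1.87 at 48 h, did not pass the test of a change (adjusted p = 0.265). Cxcl1 went from 1.11 to -0.29 (0.00614) and Cdkn1a turned from -1.29 to 0.80 (0.00507). Among the 271 genes, predicted genes left aside, those that kept the least of their 12 h difference were Man2b2, a lysosomal mannosidase (0.58 to -0.75), Tacc1 (0.44 to -0.47), Tmem53 (0.87 to -0.91), Rabgap1 (0.54 to -0.55), Kctd12b (0.77 to -0.78) and the dehydrogenase Aldh6a1 (1.25 to -1.11), each with a tested change.

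Some falls were deeper at 48 h. Klk10 grew from -1.74 at 12 h to -4.56 at 48 h (SE of the change 0.43, adjusted p = 0.000342). With predicted genes left aside, this was the largest growth in proportion among the 271 genes. Klf4, not called at 12 h, went from -0.95 to -2.61 (adjusted p = 0.0134). Next in proportion came Stmn2 (-0.85 to -2.13), Fam20a (-0.98 to -2.44), Emp2 (-0.60 to -1.48), Slc52a3 (-0.83 to -1.91) and, rising, the amino acid transporter Slc43a2 (0.82 to 1.76). Spock2 went from -1.60 to -3.41, Calml4 from -1.52 to -2.94, Prrt4 from -1.44 to -2.64 and Fgfr3 from -1.31 to -2.06, with adjusted p of 0.00343, 0.0123, 0.00952 and 0.0219. Klf2 moved from -2.39 to -2.96, a change that did not pass (adjusted p = 0.152). Nrm and Celf4 went the other way, from -2.73 to -0.92 (adjusted p = 0.00737) and from -1.64 to 1.04 (0.000405). Angpt2 (4.76), Edn1 (2.20), Ccn2 (3.32) and Frzb (2.70) were also higher in the ligated artery at 48 h, with adjusted p for the change of 0.174, 0.684, 0.134 and 0.64.

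With predicted genes left aside, the largest changes between these times concerned genes without a call at 12 h. Esm1, a marker of sprouting endothelium, stood at 0.37 at 12 h and 5.55 at 48 h, the cytokine Il1b at 0.30 and 5.21, and the neutrophil gene S100a8 at 0.34 and 4.99. On the falling side Ptprr stood at -0.58 and -4.09, Vwc2 at -0.28 and -3.60, and the sphingosine kinase Sphk2 at 0.79 and -2.41. Proliferation genes, with 0 of 21 called at 12 h, had a median of 1.79 at 48 h. At that time 19 of 21 were called, against 36.2% of all tested genes.

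**Figure D5:**
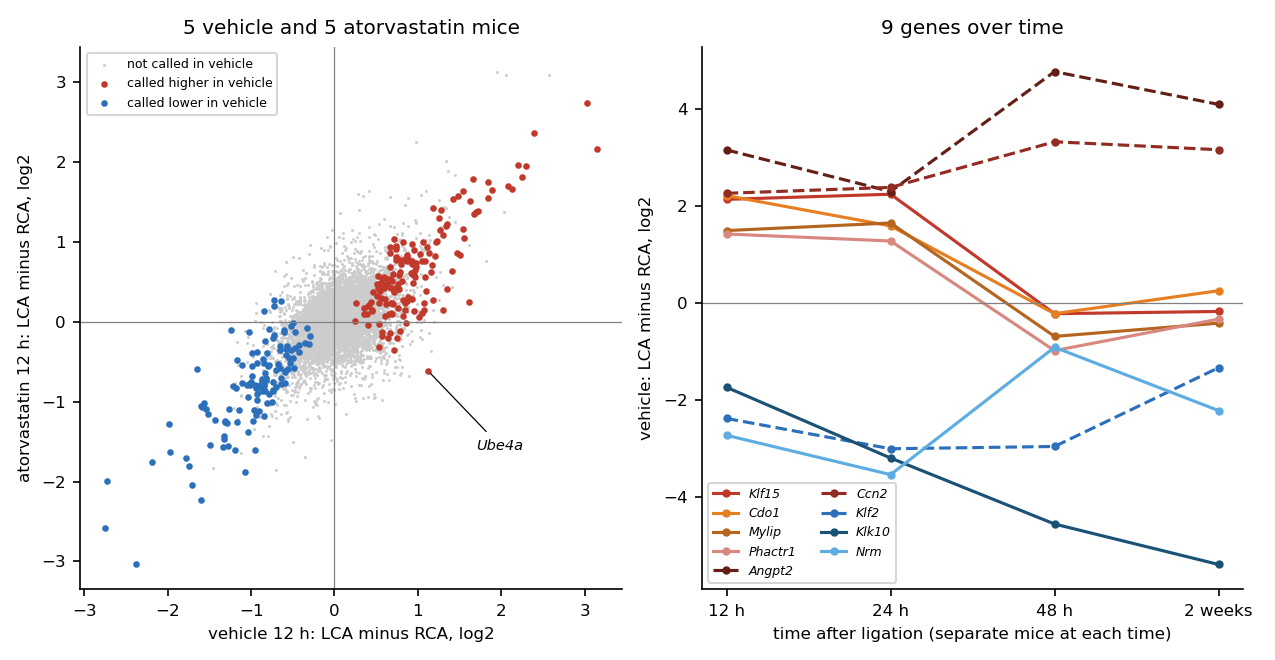
Left, LCA minus RCA difference in log2 units at 12 h under vehicle (horizontal axis) and under atorvastatin (vertical axis) for each tested gene, a point per gene, with the 149 and 122 genes called under vehicle in colour. Right, mean LCA minus RCA difference of 9 genes in vehicle-treated mice at 4 times; Klf15, Cdo1, Mylip and Phactr1 return to 0 or below by 48 h, while Klk10 is lower at each later time.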

How the data were processed

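The values are the log2 expression values that the authors deposited for 45118 probe sets on 78 arrays. Per the submitters' processing notes they were made with RMA, and for the software, its version and the probe set definition the entry is: not given in the sources used here. RMA gives the arrays a common distribution and compresses low signals. Array medians were 4.60 to 4.66 for the 10 arrays described, and values ran from 1.79 to 13.0. What limits the precision most was not tested.

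Of the probe sets, 81 controls were left out, 28898 had 1 gene symbol in the platform table, 551 had several and 15588 had none. A gene was represented by its probe set with the highest mean over all arrays (17097 genes), and 11344 genes above the array median on at least 4 arrays were tested. LCA minus RCA differences within a mouse were fitted for all 39 mice with a mean per group (limma 3.58.1 with statmod 1.5.0 in R 4.3.3, eBayes, Benjamini-Hochberg adjustment over the 11344 genes, threshold 0.05). Pairing comes from the animal number in the labels. Deviations of the arteries of 1 mouse correlated at 0.11, 0.04, 0.29, 0.02 and 0.51 in mice 1 to 5. The highest correlation of each LCA with the RCA of another mouse was 0.168, 0.071, 0.285, 0.064 and 0.218. The own pair thus stood clearly above the others only in mouse 5, and below the highest of them in mice 1, 2 and 4. Changes between times or treatments were contrasts in the same fit. The analysis was tested on simulated data.

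Named genes were the 25 largest rises and 25 largest falls among called genes that moved 1 way in 5 of 5 mice, members of the lists, Klf2, Klf4, Nos3, Klk10, Vcam1, Icam1, Edn1 and Angpt2, up to 6 genes a direction for each contrast and for the difference retained at 48 h, and the 5 widest spreads; predicted genes are not named. The 60 lists (44 pathways, 16 cell types) held 743 genes, of which 672 had a probe set and 597 were tested. Genes, lists and tests were chosen with earlier results of these data known. Alternatives were other normalisation, centring, filters, probe set rules, mice in the fit, variance prior, blocks and leaving out each mouse. Promoter sequences come from RefSeq (GRCm38.p6).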

Additional observations from a re-analysis of the deposited data

Results flagged for a closer look

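Of 113 sets of 5 values checked, 11 held a value far from the other 4, and chance gives about 1 in 20. Mouse 2 stood apart in the difference of Col6a3 (-0.834), Rflnb (-0.806) and Vcam1 (0.936), and mouse 3 in that of Bcl2l11 (1.154). In mean marker levels, smooth muscle in the RCA of mouse 3 (7.683) was far above and fibroblast in the RCA of mouse 1 (6.416) far below the other RCAs. Macrophage (6.795), mast cell (5.436) and thyroid (3.375) markers were high in the LCA of mouse 5, the last below the array median. Neutrophil markers in the RCA of mouse 4 (4.163) and platelet markers in the RCA of mouse 1 (3.71) also stood apart from the other RCAs.

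Some differences between the arteries changed with time or treatment in a direct limma test. Between 12 h and 48 h this held for 2199 genes. With predicted genes left aside, the largest increases were those of Esm1 (5.177), Il1b (4.908), S100a8 (4.645), Cytip (4.367), the metalloproteinase Adam12 (4.367) and the growth factor binding protein Igfbp3 (4.289). The largest decreases, chosen in the same way, were those of Serpina1b (-3.588), Ptprr (-3.508), Vwc2 (-3.322), Fam107a (-3.316), Sphk2 (-3.205) and Fndc1 (-3.079). Between treatments at 12 h, Ube4a differed by -1.726. What lies behind these changes was not tested.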

How the results depend on the processing

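Alternatives were run on 81 of the genes named, and none turned a direction among these; the other genes named were not checked. With the mean of all probe sets, 18 of them moved by more than 1.5 times, and calls were lost for 3 to 34 of the 77 called, except with the filter on the 12 h arrays, which lost 0. Fitted without the mice of other groups, the 12 h comparison gave 72 calls in place of 271, the 48 h against 12 h comparison 624 in place of 2199 and the atorvastatin against vehicle comparison 0 in place of 1. In limma's fits, 0 genes for that last comparison were also found with the mean of all probe sets of a gene, with the number in the title code as a block, and with only the 12 h and 24 h mice in the fit, an alternative chosen after the data were seen. For 24 h against 12 h, both the mean of all probe sets and the title code block gave 2 genes in place of 0, and for 48 h against 12 h the title code block gave 822. Without each mouse in turn, counts ran from 147 to 195 at 12 h (147 without mouse 2 or 3), from 0 to 6 against 24 h, from 1606 to 1918 against 48 h and from 0 to 1 against atorvastatin. Beyond the smaller number of mice, the cause of these shifts was not tested. Without the replicate block, that is with the arteries of a mouse treated as separate samples, 211 genes were called, 195 of them among the 271, and the pairing changed no count by more than 1.5 times. The remaining settings gave 182 to 300 calls at 12 h. Leaving out mice moved the Gapdh 3′ to 5′ difference from -0.03 to 0.15 and the actin difference from 0.085 to 0.405. The spread is that of 5 mice, strain and batch are not known, and low probe sets have only compressed differences.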

Other observations

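Some of the largest mean differences at 12 h did not pass the test, with a wide spread over mice; these genes were chosen after their values were seen. Saa3, an acute phase serum amyloid, differed by 0.53, 5.88, 6.67, -1.21 and 0.98 in mice 1 to 5 (mean 2.57, SE 1.06, limma adjusted p = 0.26). Ptx3, a long pentraxin of innate immunity, differed by 2.13, 5.85, 3.95, -1.92 and 0.25 (mean 2.05, SE 1.06, limma adjusted p = 0.41). Chil3, a chitinase-like protein of alternatively activated macrophages, differed by 0.24, 4.05, 4.03, 0.05 and 1.36 (mean 1.95, limma adjusted p = 0.417). All 3 genes were highest on the left in mice 2 and 3 and lowest or near 0 in mouse 4. Fscn1, an actin-bundling protein, and Ms4a6d and Atp6v0d2, genes of macrophages and osteoclasts, had means of 2.03, 1.82 and 1.61 (limma adjusted p = 0.378, 0.143 and 0.0677) and were negative in mouse 4. At 48 h each of these 6 genes was higher in the ligated artery and passed the test, with differences of 1.27 to 5.04. In mice 1 to 5 the neutrophil markers differed by -0.07, 0.43, 0.86, -0.30 and 0.29 on average, and the macrophage markers by 1.45, 0.06, 0.54, 0.001 and 0.92, so that macrophage markers were near 0 in mice 2 and 4 and highest in mouse 1. What part such cells had in these values was not tested.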
